A study of Mus musculus with 3 samples.

Results

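The reactive astrocyte genes described here are Gfap, Vim, Serpina3n, Aspg, Osmr, Cd44, S1pr3, Timp1, Lcn2 and Steap4. They were chosen by gene name, and all 10 were found once each among the 54532 genes of the expression table. Hippocampal RNA of mice aged 10 months, all on a C57BL/6 background, was sequenced. The groups were wild type (WT), PS19, and PS19 carrying a lost Zbp1 allele (PS19 Zbp1+/-, written Zbp1+- in the labels), with 1 library each. PS19 mice express human tau from a transgene under the mouse Prnp promoter, which is active in neurons and in other cells, and they model tauopathy. The Zbp1 protein senses nucleic acids in the Z form. The labels state neither the sex of the animals nor whether animals were pooled. The question put to these genes is what sets PS19 tissue apart from WT, and whether lower Zbp1 dosage alters it. With 1 library per genotype no difference below has a replicate check, and all intervals express counting error alone.

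Astrocytes answer injury, inflammation and protein aggregates with a graded change of state called reactivity. They enlarge their intermediate filament skeleton, secrete protease inhibitors and other acute-phase proteins, and display receptors for cytokines, matrix and lipid mediators. Cytokines of the interleukin-6 family act on astrocytes through receptors that contain gp130 (Il6st), Osmr or both. They signal through the transcription factor Stat3, whose target Socs3 feeds back on the pathway. In the hippocampus GFAP is the usual stain for astrocytes, and its rise with tau or amyloid pathology is a standard measure of gliosis. Several of the 10 genes are also used by other cells: Vim by endothelium, ependyma and microglia, Cd44 by leukocytes, and Lcn2 by neutrophils.

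Promoters are shown for the 5 members in which a searched motif was found, so that the genes that differ together between libraries can be compared at their start sites. The sequences are from RefSeq (GRCm38.p6), run from 250 bases before to 50 bases after the RefSeq start site, and are written 5′ to 3′ on the gene's strand. All 10 members were matched. Capitals mark matches to 3 of the 4 motifs searched on both strands: the STAT motif TTCNNNGAA, the AP-1 motif TGANTCA, and an NF-kB motif of GGG and TTTCC with any 2 bases between them. The 4th, an interferon response motif of GAAA repeated after any 2 bases, had no match in the 10 windows. Gfap lies at chr11:102897151-102897450 (minus strand), Vim at chr2:13574061-13574360 (plus), Serpina3n at chr12:104406458-104406757 (plus), Osmr at chr15:6874264-6874563 (minus) and Steap4 at chr5:7960222-7960521 (plus).
Gfap: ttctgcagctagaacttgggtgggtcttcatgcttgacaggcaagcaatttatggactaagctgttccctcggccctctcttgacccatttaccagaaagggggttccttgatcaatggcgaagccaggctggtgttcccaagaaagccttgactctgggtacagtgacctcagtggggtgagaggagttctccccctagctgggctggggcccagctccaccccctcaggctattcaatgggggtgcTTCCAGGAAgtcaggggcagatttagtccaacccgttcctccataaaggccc
Vim: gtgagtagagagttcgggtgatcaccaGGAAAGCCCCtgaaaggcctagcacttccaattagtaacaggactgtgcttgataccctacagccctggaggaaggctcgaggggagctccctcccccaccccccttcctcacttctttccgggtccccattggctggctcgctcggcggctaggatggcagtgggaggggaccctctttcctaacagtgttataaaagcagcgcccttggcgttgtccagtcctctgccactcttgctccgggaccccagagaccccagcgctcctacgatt
Serpina3n: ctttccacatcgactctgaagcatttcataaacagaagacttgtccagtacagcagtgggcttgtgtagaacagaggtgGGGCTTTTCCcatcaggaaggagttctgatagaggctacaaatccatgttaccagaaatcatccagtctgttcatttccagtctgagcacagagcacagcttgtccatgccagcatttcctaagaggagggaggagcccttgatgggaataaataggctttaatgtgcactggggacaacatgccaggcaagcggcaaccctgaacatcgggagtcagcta
Osmr: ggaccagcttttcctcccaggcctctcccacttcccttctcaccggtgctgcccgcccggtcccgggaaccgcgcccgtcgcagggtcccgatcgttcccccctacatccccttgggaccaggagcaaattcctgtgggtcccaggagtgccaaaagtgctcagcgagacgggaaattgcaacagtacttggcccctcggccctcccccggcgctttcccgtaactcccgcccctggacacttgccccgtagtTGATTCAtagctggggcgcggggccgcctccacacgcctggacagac
Steap4: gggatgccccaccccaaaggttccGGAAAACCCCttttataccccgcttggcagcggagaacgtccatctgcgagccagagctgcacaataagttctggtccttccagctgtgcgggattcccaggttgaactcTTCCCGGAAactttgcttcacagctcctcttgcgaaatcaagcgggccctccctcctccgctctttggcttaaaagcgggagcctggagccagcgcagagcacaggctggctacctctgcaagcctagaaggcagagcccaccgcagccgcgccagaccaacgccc

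The STAT motif was found in 2 of the 10 windows, those of Gfap and Steap4, against 8.30% of 32851 RefSeq promoter windows. In Gfap the match TTCCAGGAA runs from -2 to 6, counting the start site as 0, and in Steap4 the match TTCCCGGAA runs from -116 to -108. The NF-kB motif was found in 3 windows, those of Vim, Serpina3n and Steap4, against 1.63% of all windows. The AP-1 motif was found in 1, that of Osmr, against 7.81%, and the interferon motif in 0, against 3.44%. No match overlapped another in these windows. A match describes the letters and is not evidence of binding. The windows differ in base composition, from 48.7% G and C in Serpina3n to 66% in Osmr, with 3 CpG in Gfap, Serpina3n, Aspg and Lcn2 and 22 in Osmr. The RefSeq start of Gfap lies 3712 bases inside the gene as the table annotates it, that of Osmr 656, that of Lcn2 513 and that of Vim 384, so these windows do not cover the outermost annotated starts.

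Whole reads recovered from the table summed to 16400328 to 17109734 per library. For Zbp1, the targeted gene, 5 reads came from WT, 91 from PS19 and 0 from PS19 Zbp1+/-. A heterozygote keeps an intact allele, of which no read was seen, so PS19 Zbp1+/- below means the library labelled so. Xist, made from the inactive X chromosome, gave 11062 reads for WT, 13350 for PS19 and 0 for PS19 Zbp1+/-, and the Y-linked Ddx3y gave 0, 0 and 711. Sex and Zbp1 dosage therefore cannot be told apart in either comparison of the PS19 Zbp1+/- library. That library also lacked many weakly expressed genes: of 797 genes with 10 to 20 reads in both other libraries, 60 had none there, or 7.53% (exact 95% interval 5.79% to 9.58%), against 3 of 549 for WT and 0 of 570 for PS19. Its summed level of 8 choroid plexus markers was 26.8 FPKM, against 3425 in WT and 2170 in PS19. FPKM counts fragments per kilobase of exon, scaled to library size, so it compares levels between genes per length. In whole tissue, fewer cells of a type and less RNA per cell cannot be told apart. The resting astrocyte markers show that astrocyte RNA was present in every library: all 15 were detected, with summed levels of 1340, 1737 and 1518 FPKM in WT, PS19 and PS19 Zbp1+/-.

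All 10 reactive astrocyte genes were highest in the PS19 library, and in PS19 Zbp1+/- each stood nearer to WT than to PS19. Together they took 0.0559% of WT reads (exact 95% interval 0.0548% to 0.0571%), 0.422% of PS19 reads (0.419% to 0.425%) and 0.0558% of PS19 Zbp1+/- reads (0.0547% to 0.0570%). Of the member reads, Gfap alone supplied 76.5% for WT (75.6% to 77.3%), 81.0% for PS19 (80.7% to 81.3%) and 78.6% for PS19 Zbp1+/- (77.8% to 79.4%). Genes were called where log2(FPKM + 1) differed by 1 unit or more, a 2-fold rule on a scale that understates changes of weakly expressed genes. On that rule 9 of the 10 members were higher in PS19 than in WT and 0 lower. Of the 12703 protein-coding genes that reached an FPKM of 1 in PS19 or WT, 2.2% were higher and 0.291% lower. Between PS19 Zbp1+/- and PS19, 9 of the 10 were lower and 0 higher, where 5.16% of 12772 genes were lower and 2% higher. Steap4 was the exception in both, and never reached an FPKM of 1. Of the members, only Gfap, Vim, Serpina3n, Aspg and S1pr3 had an FPKM of at least 1 in every library, while Osmr, Cd44, Timp1 and Lcn2 did so in PS19 alone. These 4 entered through the library in which they were high, so the counts over the members describe them and support nothing further. Over all 10 members the median difference was 1.63 for PS19 minus WT and -1.57 for PS19 Zbp1+/- minus PS19, against -0.03 and 0.04 over all genes tested. Both comparisons contain the PS19 library, so they are not independent.

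**Figure D1:**
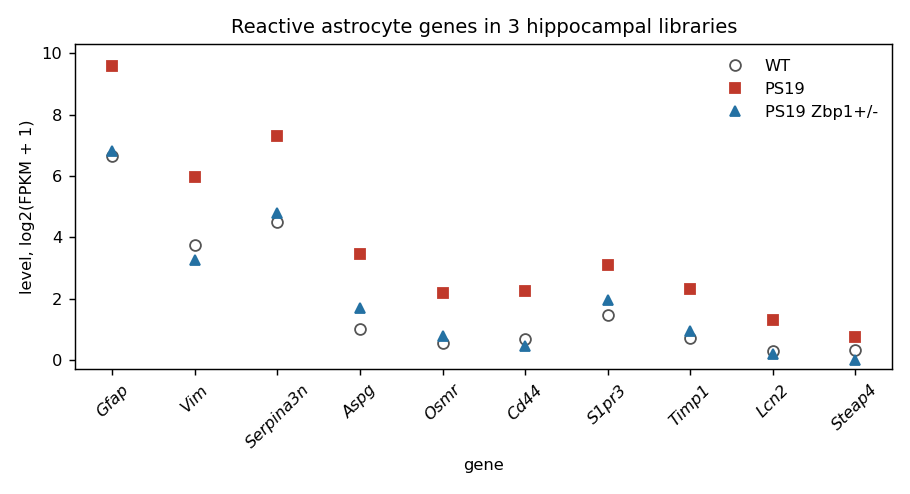
Level of each of the 10 genes, as log2(FPKM + 1), in the WT (open circles), PS19 (squares) and PS19 Zbp1+/- (triangles) libraries, 1 point per library and no error bars. The PS19 square is the highest of the 3 points for each gene, and the other 2 points lie closer to each other than to it.

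Gfap and Vim encode the 2 class III intermediate filament proteins of the reactive astrocyte, glial fibrillary acidic protein and vimentin. Gfap (ENSMUSG00000020932, chromosome 11, 102887336 to 102900912, minus strand, 4218 exonic bases) stood at 98.4 FPKM for WT, 768 for PS19 and 112 for PS19 Zbp1+/-. It was the most abundant member in every library, and its PS19 level stood apart from both others. The read ratio, taken per library size, was 7.81 for PS19 over WT, and its 95% interval by the exact Clopper-Pearson method ran from 7.62 to 8.0. PS19 Zbp1+/- was 6.83-fold below PS19 (6.66 to 6.99). The ratio of PS19 Zbp1+/- to WT was 1.14 (1.11 to 1.18), and it was 1.03 when libraries were scaled by total reads.

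Vim (ENSMUSG00000026728, chromosome 2, 13573927 to 13582826, plus strand) had levels of 12.6, 61.5 and 8.54 FPKM in WT, PS19 and PS19 Zbp1+/-. Its PS19 level was again apart from both others, but the order of WT and PS19 Zbp1+/- was the opposite of that of Gfap. PS19 was 4.89-fold above WT (4.57 to 5.23). PS19 Zbp1+/- was 7.20-fold below PS19 (6.63 to 7.83) and 1.47-fold below WT (1.33 to 1.63). Per length, Gfap exceeded Vim 7.82 times for WT, 12.5 times for PS19 and 13.2 times for PS19 Zbp1+/-. Cells that line the ventricles also make vimentin, and their markers were low in the same library: all 6 ependyma markers and all 8 choroid plexus markers were lower in PS19 Zbp1+/- than in WT, and none of them was at 0. The ependyma markers summed to 34.2, 29.8 and 7.39 FPKM in WT, PS19 and PS19 Zbp1+/-. Their part in the Vim level was not tested.

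None of the other filament genes listed was called. Of 10 filament partners, 9 had an FPKM of 1 or more in WT or PS19, and 0 of the 9 passed the 2-fold rule in any of the 3 comparisons. Nestin (Nes), a filament of progenitors that reactive astrocytes can express again, had 2.10, 2.77 and 1.76 FPKM in WT, PS19 and PS19 Zbp1+/-. Synemin (Synm), which joins GFAP and vimentin in mixed filaments, had 6.75, 8.82 and 7.81. Plectin (Plec), a linker of filaments to membranes, had 12.9, 15.2 and 19.0. Of the neuronal filaments, Nefl had 104, 82.4 and 101, and Ina had 48.5, 50.4 and 82.5. The 10 genes had a median difference of 0.05 for PS19 minus WT, and their differences among those with an FPKM of at least 1 ran from -0.60 for Prph to 0.34 for Synm.

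Among the secreted members, Serpina3n was the most abundant. It encodes a serine protease inhibitor, a mouse counterpart of human alpha-1-antichymotrypsin. Serpina3n (ENSMUSG00000021091, chromosome 12, 104406729 to 104414329, plus strand) had levels of 21.8, 157 and 26.8 FPKM in WT, PS19 and PS19 Zbp1+/-. PS19 stood well above both others, which were near each other. The read ratio was 7.18 for PS19 over WT (6.66 to 7.75), and PS19 Zbp1+/- was 5.85-fold below PS19 (5.45 to 6.29). The ratio of PS19 Zbp1+/- to WT was 1.23 (1.11 to 1.35), and 1.10 when scaled by total reads.

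Serpina3n sits in a cluster of related genes that could share reads with it. Only the longest alignment to each other gene, of 100 bases or more, was examined, and none of these reached 90% identity. Shorter stretches of higher identity were not sought. The closest, Serpina3h, aligned at 85.8% over 1227 bases and had 10, 2 and 20 reads, against 776, 5585 and 874 for Serpina3n. Of the 10 other Serpina3 genes listed, 4 had no read in any library, and Serpina3g was the only one to reach an FPKM of 1. Serpina3g had levels of 0.716, 0.907 and 3.42 FPKM in WT, PS19 and PS19 Zbp1+/-. It was highest in the library where Serpina3n was near WT, with a ratio of 3.77 for PS19 Zbp1+/- over PS19 (2.54 to 5.74) and of 1.27 for PS19 over WT (0.735 to 2.21).

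Timp1 encodes a secreted inhibitor of matrix metalloproteinases. Timp1 (ENSMUSG00000001131, chromosome X, 20870166 to 20874735, plus strand) had 10, 61 and 13 reads, or 0.653, 3.97 and 0.925 FPKM, in WT, PS19 and PS19 Zbp1+/-. PS19 was apart from the others, and WT and PS19 Zbp1+/- were not distinguishable at this depth. The ratio was 6.09 for PS19 over WT (3.10 to 13.3) and 1.42 for PS19 Zbp1+/- over WT (0.574 to 3.61), and PS19 Zbp1+/- was 4.30-fold below PS19 (2.33 to 8.52). The gene is X-linked and the libraries differ in sex. It also lies whole within the span of Syn1, the synapsin gene on the opposite strand, with no exon in common. The sources used here do not state that counting used strand. Exonic reads of the genes fall in different places, so only Syn1 reads from outside its exons could be counted as Timp1. For Syn1 there were 8773 WT, 7986 PS19 and 13368 PS19 Zbp1+/- reads, and its part in the Timp1 reads was not tested.

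The relatives of Timp1 and the proteases they inhibit showed little of this. Of 10 such genes, 6 had an FPKM of at least 1 in PS19 or WT and 0 of them passed the 2-fold rule between those libraries. Timp2 was the most abundant, at 89.1, 86.3 and 156 FPKM in WT, PS19 and PS19 Zbp1+/-. Timp3, a matrix-bound inhibitor, had 7.53, 11.7 and 5.28. It was the 1 gene of the 6 to be lower in PS19 Zbp1+/- than in PS19 by the rule, at -1.01. The membrane protease genes Adam10 and Mmp14 had 16.7, 17.9 and 14.3, and 3.20, 2.99 and 3.05 FPKM. The gelatinase Mmp9 had 24, 32 and 19 reads, and stromelysin Mmp3 had 0, 3 and 0.

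Lcn2 encodes lipocalin 2, a secreted protein that binds iron-carrying siderophores and is released in inflammation. Lcn2 (ENSMUSG00000026822, chromosome 2, 32384633 to 32388252, minus strand) had 11, 68 and 6 reads, or 0.243, 1.5 and 0.145 FPKM, in WT, PS19 and PS19 Zbp1+/-. PS19 was apart from both others, and these did not differ beyond counting error. The ratio was 6.17 for PS19 over WT (3.24 to 12.9), and PS19 Zbp1+/- was 10.4-fold below PS19 (4.53 to 29.3). Its log2(FPKM + 1) difference between PS19 and WT, 1.01, only just passed the rule, and it was 0.80 when libraries were scaled by their resting astrocyte markers.

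Neutrophils store lipocalin 2, and some transcripts of that cell type were, like Lcn2, highest in PS19. Ngp, a granule protein gene not among those picked by level or difference, had 5, 29 and 0 reads from WT, PS19 and PS19 Zbp1+/-. S100a8 had 5, 18 and 0, and Retnlg had 1, 15 and 1. Of the 9 neutrophil markers, 6 were higher and 2 lower in PS19 than in WT by some amount. From PS19 to PS19 Zbp1+/- 5 were lower and 2 higher, and the list summed to 1.76, 7.21 and 1.25 FPKM. Ly6g had no read in any library, and Mpo and Elane, the defining granule enzymes, had 0 reads in PS19. The part of these cells in the Lcn2 reads was not tested. Slc22a17, a receptor for lipocalin 2, was abundant at 197, 158 and 226 FPKM, and Mc4r, another, had 1.68, 0.860 and 1.51. Neither passed the rule in any comparison.

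Of the members at the cell surface, Osmr encodes the receptor subunit for oncostatin M, a cytokine of the interleukin-6 family. Osmr (ENSMUSG00000022146, chromosome 15, 6813577 to 6874969, minus strand, 12113 exonic bases) had levels of 0.464, 3.58 and 0.725 FPKM in WT, PS19 and PS19 Zbp1+/-, from 97, 749 and 139 reads. PS19 stood apart, with PS19 Zbp1+/- slightly above WT. The ratio was 7.71 for PS19 over WT (6.23 to 9.62) and 1.56 for PS19 Zbp1+/- over WT (1.20 to 2.05), and PS19 Zbp1+/- was 4.93-fold below PS19 (4.11 to 5.96).

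The pathway around Osmr was less uniform. Of its 18 listed cytokines, receptors and signalling genes, 13 had an FPKM of at least 1 in PS19 or WT, and 1 was higher in PS19 by the rule. That gene was Socs3, the feedback inhibitor, at 0.621, 2.46 and 0.787 FPKM in WT, PS19 and PS19 Zbp1+/-, and PS19 stood 3.96-fold above WT (2.65 to 6.08). Stat3 itself had 5.37, 10.1 and 4.85 FPKM, and PS19 stood 1.88-fold above WT (1.74 to 2.05). Il6st, the shared receptor chain gp130, had 7.03, 11.5 and 6.06, a ratio of 1.64 (1.53 to 1.76). Both were highest in PS19 without passing the 2-fold rule. The kinase Jak1 was level at 24.7, 24.9 and 27.3 FPKM, as was the LIF receptor Lifr at 4.85, 5.45 and 4.84. Cntfr, the CNTF receptor chain and the most abundant gene of the list in PS19, had 21.9, 27.8 and 37.2.

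Among the ligands, Ctf1, cardiotrophin 1, was the most abundant in WT and PS19, at 2.67, 2.03 and 0.520 FPKM in WT, PS19 and PS19 Zbp1+/-. It was highest in WT, and its difference of -1.27 between PS19 Zbp1+/- and WT was the only one of the list past the rule in that comparison. Osm, the ligand of the Osmr complex, had 1, 6 and 3 reads from WT, PS19 and PS19 Zbp1+/-, and Il6 had 1, 5 and 0. Clcf1, a ligand of the CNTF receptor, had 21, 92 and 23 reads, with PS19 4.37-fold above WT (2.70 to 7.40). Lif, leukemia inhibitory factor, broke from the member pattern with 6, 36 and 41 reads, so PS19 Zbp1+/- and PS19 did not differ beyond counting error. Its ratio of PS19 Zbp1+/- to PS19 was 1.24 (0.776 to 2.0). Over the 18 genes the median difference for PS19 minus WT was 0.15.

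Cd44 encodes a receptor for hyaluronan and osteopontin. Cd44 (ENSMUSG00000005087, chromosome 2, 102811141 to 102901665, minus strand) had levels of 0.607, 3.77 and 0.373 FPKM in WT, PS19 and PS19 Zbp1+/-, from 71, 442 and 40 reads. PS19 was apart from both others, and PS19 Zbp1+/- was the lowest. The ratio was 6.21 for PS19 over WT (4.83 to 8.10). PS19 Zbp1+/- was 10.1-fold below PS19 (7.31 to 14.4) and 1.63-fold below WT (1.09 to 2.46).

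Of 9 Cd44 ligands and linkers, 5 had an FPKM of at least 1 in PS19 or WT. Moesin (Msn), which ties Cd44 to actin, was the only one of them higher in PS19 by the rule, at 4.01, 12.0 and 3.15 FPKM in WT, PS19 and PS19 Zbp1+/-. Its relatives Ezr and Rdx had 25.9, 30.7 and 17.6, and 19.4, 23.4 and 14.7 FPKM. Osteopontin (Spp1) had 7.03, 13.8 and 1.38, and like Cd44 was below WT in PS19 Zbp1+/-, by 5.10-fold (3.56 to 7.48). The hyaluronan synthase genes Has1, Has2 and Has3 stayed below an FPKM of 1 in each library. Microglia and other leukocytes also make Cd44 and Msn, and the 10 microglia markers summed to 173, 624 and 167 FPKM, with none at 0. By the 2-fold rule 7 of the 10 were higher in PS19 than in WT and 7 lower in PS19 Zbp1+/- than in PS19. Their part in the Cd44 level was not tested.

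S1pr3 encodes a receptor for the lipid sphingosine 1-phosphate. S1pr3 (ENSMUSG00000067586, chromosome 13, 51408639 to 51422797, plus strand) had levels of 1.75, 7.48 and 2.89 FPKM in WT, PS19 and PS19 Zbp1+/-. PS19 was highest, and PS19 Zbp1+/- stayed above WT. The ratio was 4.27 for PS19 over WT (3.53 to 5.18) and 1.65 for PS19 Zbp1+/- over WT (1.32 to 2.06). PS19 Zbp1+/- was 2.59-fold below PS19 (2.20 to 3.05) in reads. That was the lowest point value of the 10 members, but its interval overlapped that of Timp1, and on the log2(FPKM + 1) scale the step of Steap4 was smaller, at -0.76 against -1.12. Its antisense neighbour Gm32834, with 45 exonic bases in common, had 14, 6 and 5 reads.

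The other sphingosine phosphate genes were listed as well. Of 9, 6 had an FPKM of at least 1 in PS19 or WT, and 0 passed the rule in any of the 3 comparisons. S1pr1, the most abundant receptor, had 41.2, 41.5 and 32.2 FPKM in WT, PS19 and PS19 Zbp1+/-. S1pr5, a receptor of oligodendrocytes, had 8.53, 13.2 and 8.37. The transporter Spns2 had 23.9, 23.5 and 25.1, and the kinase Sphk2 had 8.07, 7.08 and 9.77. Sphk1, the other kinase that makes the ligand, stayed below an FPKM of 1 and so outside that count, with 75, 50 and 8 reads. Its PS19 Zbp1+/- level was 8.60-fold below WT (4.15 to 20.6).

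Steap4 encodes a metalloreductase of the cell membrane that handles iron and copper. Steap4 (ENSMUSG00000012428, chromosome 5, 7960457 to 7982213, plus strand) had 14, 38 and 0 reads, or 0.257, 0.697 and 0 FPKM, in WT, PS19 and PS19 Zbp1+/-. PS19 was the highest and PS19 Zbp1+/- was listed at 0, where 3 reads would be 0.0601 FPKM. The ratio was 2.71 for PS19 over WT (1.43 to 5.41). With its 0 reads set to a floor of 3, PS19 Zbp1+/- was 11.6-fold lower than PS19 and 4.28-fold lower than WT. These values have no interval and leave out the counting error of the 38 and 14 reads. That library also lacked 7.53% of genes with 10 to 20 reads in both others, which makes the values less certain still. Steap4, with 38 reads in PS19, is outside that class, so the rate is not its own.

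Steap1 and Steap2 were also lowest in PS19 Zbp1+/-. Steap1 had 106, 77 and 0 reads from WT, PS19 and PS19 Zbp1+/-, and Steap2 had 423, 623 and 82. Steap3 had 146, 218 and 129. PS19 was the highest library for Steap2, 1.47-fold above WT (1.30 to 1.67), and for Steap3, whereas WT was the highest for Steap1. Of the 3 genes, 0 passed the 2-fold rule between PS19 and WT, and Steap1 and Steap2 were lower by that rule in PS19 Zbp1+/- than in both other libraries.

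Aspg encodes an asparaginase. Aspg (ENSMUSG00000037686, chromosome 12, 112106679 to 112127559, plus strand) had levels of 1.02, 9.89 and 2.28 FPKM in WT, PS19 and PS19 Zbp1+/-, from 62, 602 and 127 reads. PS19 was apart from both others, and PS19 Zbp1+/- stood between them. The ratio of 9.69 for PS19 over WT (7.45 to 12.8) had the highest point value of the 10, though its interval overlapped that of Gfap. PS19 Zbp1+/- was 4.34-fold below PS19 (3.58 to 5.30) and 2.23-fold above WT (1.64 to 3.08). Asns, asparagine synthetase, had 39.0, 28.6 and 37.5 FPKM, and Asrgl1, another asparaginase, had 39.0, 47.0 and 42.0. Neither passed the 2-fold rule.

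Ordered by the ratio of PS19 to WT, the members ran from Aspg through Gfap, Osmr, Serpina3n, Cd44, Lcn2, Timp1, Vim and S1pr3 to Steap4. Each neighbouring pair in that order had overlapping intervals, so neighbours did not differ beyond counting error. Members farther apart did differ: the lower bound of Gfap, 7.62, was above the upper bound of Vim, 5.23, and that of S1pr3, 5.18.

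**Figure D2:**
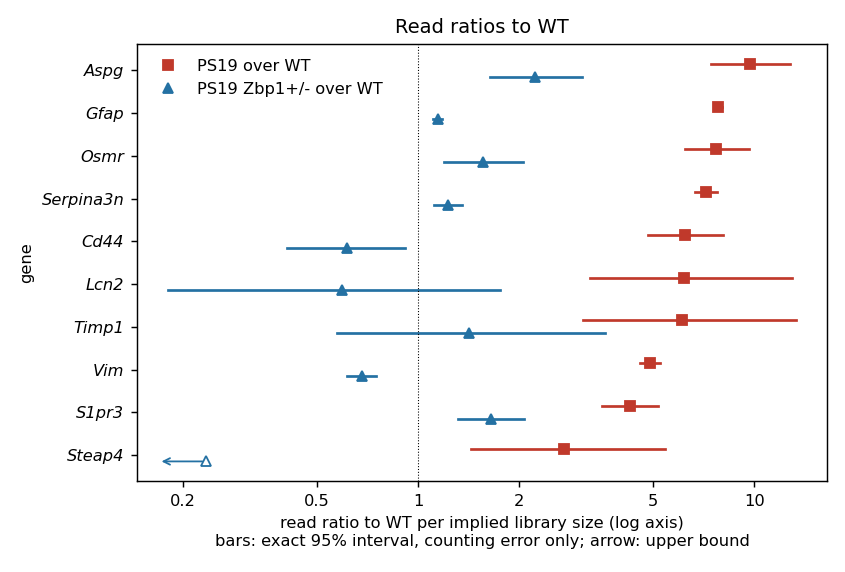
Read ratio to WT of each gene, on a log axis, for PS19 (squares) and PS19 Zbp1+/- (triangles), with bars for the exact 95% interval of counting error. The PS19 ratios run from 2.71 to 9.69, and the PS19 Zbp1+/- ratios fall on both sides of 1. Steap4, with 0 reads set to 3, is drawn as an upper bound that leaves out counting error.

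In PS19 Zbp1+/- the members did not return to WT as a block. Of the 10, 5 had an FPKM of at least 1 in PS19 Zbp1+/- or WT, and 0 of these 5 differed by the 2-fold rule. Among the 12436 genes tested, 1.07% were higher and 2.28% lower. Osmr, Cd44, Timp1, Lcn2 and Steap4 were below an FPKM of 1 in both libraries, where log2(FPKM + 1) cannot differ by 1 unit. The counting intervals separated the 10 members further. Aspg, S1pr3, Osmr, Serpina3n and Gfap lay above WT, Vim and Cd44 lay below it, and Timp1 and Lcn2 had intervals that held 1. Steap4, at 0 reads, also lay below. When libraries were scaled by total reads or by summed resting astrocyte markers, Serpina3n and Gfap no longer had intervals above 1, with ratios of 1.08 and 1.01 under the latter. Aspg, S1pr3 and Osmr stayed above WT and Vim and Cd44 below it under each of the 5 scalings. The median difference over the 10 was 0.21, against 0.01 over all genes tested, and 0.06 after scaling by the astrocyte markers.

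**Figure D3:**
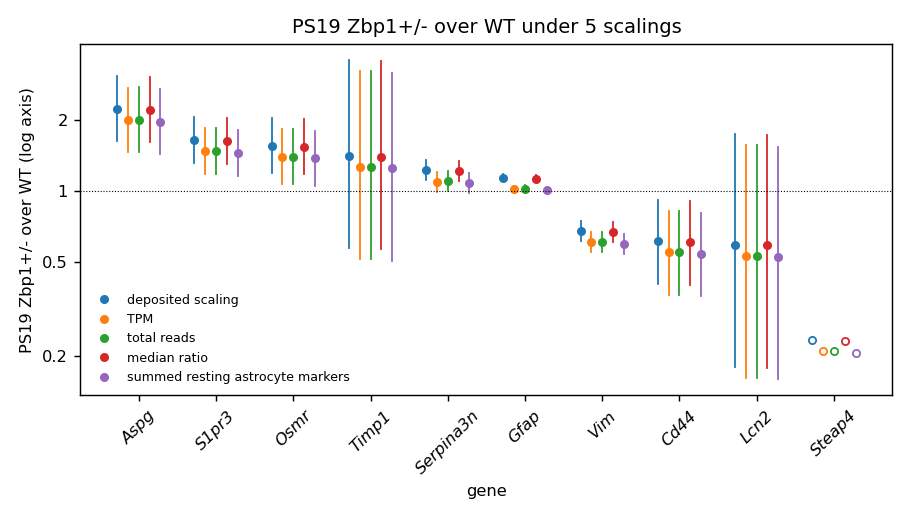
Ratio of PS19 Zbp1+/- to WT for each gene, on a log axis, under 5 ways of scaling the libraries. Bars show the exact 95% interval of counting error (open circles take 0 reads as 3 and have no bar). Aspg, S1pr3 and Osmr lie above 1 and Vim, Cd44 and Steap4 below 1 in all 5, while Gfap and Serpina3n reach 1 under 3 of them.

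The resting astrocyte markers moved less than the members. All 15 were higher in PS19 than in WT by some amount, where 46.3% of all genes tested were, but Aqp4 alone passed the 2-fold rule. In PS19 Zbp1+/- 13 of the 15 were lower than in PS19 by some amount and 2 higher. Of all genes tested there, 53.7% were higher by some amount. By the rule 2 of the 15 were lower, against 5.16% of all genes tested. Aqp4, the water channel of astrocyte endfeet, had 22.2, 62.2 and 17 FPKM in WT, PS19 and PS19 Zbp1+/-. The glutamate transporter Slc1a2 had 140, 210 and 164, and glutamine synthetase Glul had 426, 489 and 424. Aldoc, an aldolase gene, had 202, 239 and 295, and Ndrg2 had the smallest difference of the 15 between PS19 and WT, at 220, 237 and 279. Aldh1l1, a marker of astrocytes in all states, had 11.3, 15.1 and 12.3. The median difference of the 15 was 0.39 for PS19 minus WT, -0.36 for PS19 Zbp1+/- minus PS19 and 0.07 for PS19 Zbp1+/- minus WT, and the last turned to -0.08 when scaled by total reads. Relative to the sum of these markers, the ratio of PS19 to WT was 6.02 for Gfap, 7.48 for Aspg, 3.77 for Vim and 2.09 for Steap4, and all 10 members stayed above 1.

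Reactive astrocyte panels beyond the 10 genes were examined next. Of 9 other genes reported as reactive in several kinds of injury, 7 were higher in PS19 than in WT by some amount and 2 by the rule. In PS19 Zbp1+/- 8 of the 9 were lower than in PS19 by some amount and 2 by the rule. The genes higher in PS19 by the rule were Cxcl10, a chemokine also made by other interferon-exposed cells, with 13, 186 and 4 reads from WT, PS19 and PS19 Zbp1+/-, and Cd9, a membrane tetraspanin, with 21.9, 51.5 and 11 FPKM. The lysosomal protease gene Ctsb, the most abundant of the 9, had 85.0, 131 and 92.7. The lipid-binding Fabp7, a radial glia and astrocyte gene, was lowest in PS19, at 16.5, 8.47 and 14.6, with WT 1.95-fold above PS19 (1.63 to 2.34).

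The panel called A1, described after inflammatory challenge, had 12 of 13 genes with an FPKM of 1 or more in PS19 or WT, and 8 of the 12 were higher in PS19 by the rule. C3, complement component 3, had 0.823, 8.64 and 0.135 FPKM in WT, PS19 and PS19 Zbp1+/-. H2-D1, a class I histocompatibility gene, had 18.8, 40.6 and 4.88, and Serping1, the C1 inhibitor, had 5.31, 11.8 and 1.14. Several of these panel genes are also made by microglia, endothelium and other cells. In PS19 Zbp1+/- C3, H2-D1 and Serping1 lay below WT as well as below PS19, by 6.09-fold (3.21 to 12.7), 3.85-fold (3.29 to 4.52) and 4.65-fold (3.33 to 6.64). The median of the 13 genes for PS19 Zbp1+/- minus WT was -0.66, beside 0.21 for the 10 members. Amigo2, an adhesion protein gene, was the 1 tested panel gene not higher in PS19 than in WT, at 11.9, 11.6 and 13.8 FPKM.

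The panel called A2, described after ischemia, had 7 of 12 genes with an FPKM of 1 or more in PS19 or WT, and 2 were higher in PS19 by the rule. Tgm1, a transglutaminase, had 8, 122 and 5 reads from WT, PS19 and PS19 Zbp1+/-, so PS19 stood 15.2-fold above WT (7.48 to 36.0). Cd14, a co-receptor for lipopolysaccharide that microglia also make, had 60, 186 and 47 reads. S100a10 had 9.90, 15.4 and 11.4 FPKM, and the prostaglandin synthase Ptgs2 had 5.91, 5.30 and 3.26. Neither of these last passed the 2-fold rule.

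**Figure D4:**
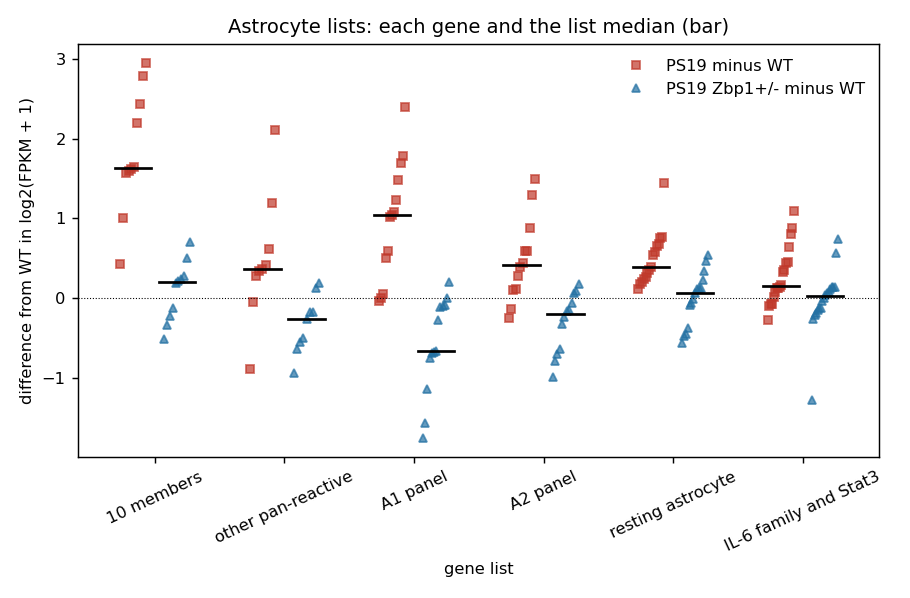
Difference from WT in log2(FPKM + 1) for each gene of 6 lists, for PS19 (squares) and PS19 Zbp1+/- (triangles), with a black bar at the median over every gene of the list. The PS19 medians are 1.63 for the 10 members and 0.39 for the resting astrocyte markers, and the PS19 Zbp1+/- median of the A1 panel is -0.66.

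By their pair of log2 read ratios, PS19 over WT and PS19 Zbp1+/- over PS19, the genes nearest to Gfap outside the 10 were sought. The search covered 11650 protein-coding genes with at least 100 reads in PS19, over 3 libraries only, and 51 of them lay within a Euclidean distance of 1. Slc15a3, a lysosomal peptide transporter, was nearest at a distance of 0.15, with 22, 155 and 21 reads from WT, PS19 and PS19 Zbp1+/-. Naip2, an inflammasome sensor, followed at 0.19 with 15, 112 and 17 reads. Mpeg1, a pore-forming protein of macrophages, was at 0.32 with 354, 2216 and 292. Myo1f at 0.39 and the leukocyte integrin subunit Itgb2 at 0.41 completed the nearest 5. Among the members, Serpina3n was closest to Gfap at 0.25 and Osmr next at 0.47, and S1pr3 at 1.65 and Steap4 at 1.71 were the farthest.

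Markers of other cell types differed between the same libraries, and each list is given here by its summed level. Endothelial markers summed to 63.6, 70.5 and 73.9 FPKM in WT, PS19 and PS19 Zbp1+/-, and 0 of 8 passed the rule in any comparison. From PS19 to PS19 Zbp1+/- 7 of the 8 were lower by some amount, with a median of -0.23, while Cldn5 went from 19.1 to 38.1 FPKM. Oligodendrocyte markers summed to 753, 1358 and 477. All 6 were higher in PS19 than in WT by some amount, with a median of 0.81, and 1 by the rule. In PS19 Zbp1+/- 6 of 6 were lower than in PS19 by the rule. Neuron markers summed to 871, 760 and 1130, with 0 of 8 past the rule between PS19 and WT. In PS19 Zbp1+/- 6 of the 8 were higher than in PS19 by some amount, with a median of 0.43, and Slc17a7 passed the rule at 1.10. Pericyte and smooth muscle markers summed to 71.2, 81.3 and 81.4, with 0 of 7 past the rule between PS19 and WT. Fibroblast markers of the meninges summed to 30.2, 28.6 and 25.5, with 3 of 6 lower and 1 higher by the rule in PS19 Zbp1+/- than in PS19. Neural progenitor markers summed to 56.2, 47.9 and 50.9, and 0 of 4 passed the rule in any comparison. T cell markers held at most 20 reads each in any library. The part of these cell types in the member levels was not tested.

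**Figure D5:**
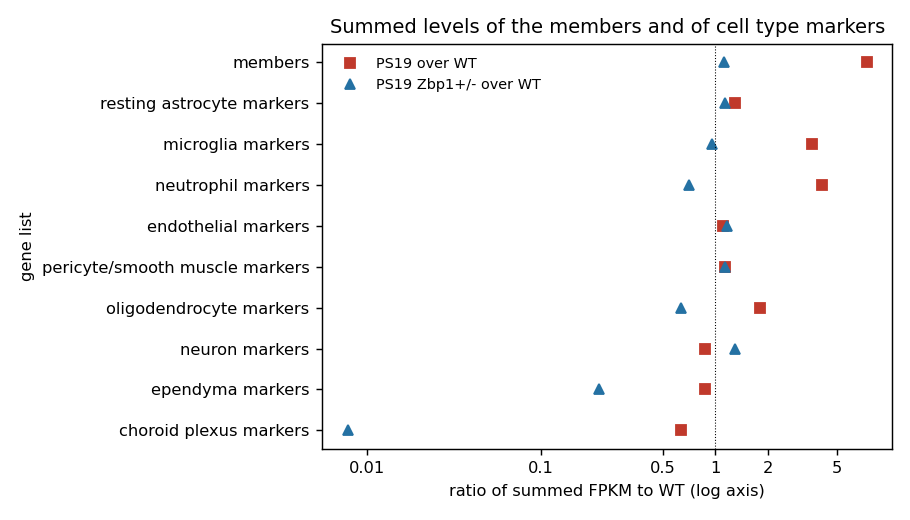
Ratio to WT of the summed FPKM of the 10 genes and of 9 cell type marker lists, on a log axis, for PS19 (squares) and PS19 Zbp1+/- (triangles). The members stand at 7.38 in PS19 and 1.13 in PS19 Zbp1+/-, the microglia markers at 3.61 and 0.962, and the choroid plexus markers at 0.633 and 0.00783.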

How the data were processed

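Hippocampal total RNA was extracted with TRIzol and sequenced from NEB Next Ultra libraries, per the labels' protocols. The authors deposited 1 table of FPKM values with 1 column per library, all 3 of which were used. Trim Galore 0.6.5, STAR 2.5.3a, featureCounts 2.0.4 and build mm39 are named in the submitters' processing notes, yet 98.3% of gene positions equal those of GENCODE M21 (GRCm38), and all 10 members do, so positions are given as GRCm38. Strandedness and filters are not given in the sources used here.

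In each column the products of FPKM and gene length were whole multiples of a constant for 100% of values (within 0.01 read). This gave reads and implied library sizes of 17253479, 17287957 and 15826984 for WT, PS19 and PS19 Zbp1+/-. The last was below the 17109734 reads of its library, while the others were above their 16746085 and 16400328 reads. Scaling by total reads multiplied the ratios of PS19 Zbp1+/- to WT by 0.898 and to PS19 by 0.878. Differences are of log2(FPKM + 1), with a pseudocount of 1. Read ratios have exact Clopper-Pearson 95% intervals, which treat reads as independent although no molecular identifiers were used. With 1 library per group no test between genotypes was made. Named genes are all 10 members, Zbp1, the 5 nearest to Gfap, partner genes described for their role, and, in the astrocyte lists, those with the highest PS19 level or the largest or smallest difference. Slc1a2, Aldh1l1, Cldn5 and Slc17a7 were added after their values were seen. Of the neutrophil markers, S100a8 and Retnlg were picked by level or difference, and Ngp, Ly6g, Mpo and Elane were not. S100a9, also picked by level, is not described. The gene lists numbered 24 beside the members. The members and lists were chosen with earlier results of these data known. Near copies were sought with BLAST 2.17.0 at 90% identity, in the longest alignment to each other gene only. Tables and intervals were made with pandas 2.3.3 and scipy 1.17.1 under Python 3.11.15, figures with matplotlib 3.10.9, and the procedure was tested on simulated data. Alternatives were other pseudocounts, filters, thresholds and scalings. Scaling by the resting astrocyte markers was added after the data had been seen.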

Additional observations from a re-analysis of the deposited data

How the results depend on the processing

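No member changed sign in any comparison under the 7 alternatives tried on single genes (70 values a comparison). Steap4 passed the rule for PS19 Zbp1+/- minus PS19 at pseudocounts of 0.1 and 0.5, as TPM and by read ratio (-2.99, -1.26, -1.90 and -3.54), and for PS19 Zbp1+/- minus WT at 0.1 and by read ratio (-1.84 and -2.10). It passed the 2-fold rule between PS19 and WT at a pseudocount of 0.1 (1.16) and by read ratio (1.44). Aspg was above WT in PS19 Zbp1+/- by that rule under the same 2 settings (1.09 and 1.16). Scaling by resting astrocyte markers, chosen after seeing the data, ended the calls of Lcn2 in PS19 over WT (0.80) and of S1pr3 in PS19 Zbp1+/- minus PS19 (-0.98). The median of the members for PS19 minus WT was 2.44 and 2.02 at pseudocounts of 0.1 and 0.5, 2.61 with a mean FPKM of at least 5, 2.35 as TPM with a pseudocount of 1, 2.63 by read ratio and 1.33 by astrocyte markers. For PS19 Zbp1+/- minus PS19 the same settings gave -2.63, -1.82, -2.50, -2.25, -2.66 and -1.46, and a minimum of 50 reads gave -1.73. For PS19 Zbp1+/- minus WT, TPM and total reads both gave 0.086, and astrocyte markers 0.062. The number of members past the rule was 4 and 5 in the first and second comparison with a mean FPKM of at least 5, which leaves 4 and 5 members, and 4 and 3 at 4-fold. It was 1 in the third at a pseudocount of 0.1, by read ratio and at 1.5-fold. That count covered the 5 members with an FPKM of at least 1 in WT or PS19 Zbp1+/-, and so left out Steap4. A pseudocount of 1 is smaller relative to TPM than to FPKM. With the TPM factor alone and the pseudocount kept to the scale of FPKM, the first 2 medians were 1.74 and -1.70, with 9 members past the rule in each. TPM with a pseudocount of 1 moved the median of all genes to 0.11, -0.25 and -0.15 in the 3 comparisons. No paired analysis was possible because each genotype has 1 library. No library could be left out for the same reason. Members with under 20 reads in WT (Timp1, Lcn2, Steap4) cannot show differences between WT and PS19 Zbp1+/- smaller than their intervals.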
